A study of Mus musculus with 63 samples.

Results

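Immunoglobulin RNA in mouse intestinal tumours was described through 134 genes of antibody-producing plasma cells. The genes were chosen by name, as the variable (V) segments of the heavy chain (Ighv), kappa (Igkv) and lambda (Iglv) light chains, the constant region genes, and the companion genes Jchain, Mzb1 and Derl3. Of 225 genes in the table with such a name, 134 had a mean of at least 10 normalised counts over all 63 libraries and 91 fell under that minimum, out of 24766 genes in all. The 134 were 59 Ighv, 61 Igkv and 3 Iglv segments, 8 constant region genes (Igha, Ighm, Ighg1, Ighg2b, Igkc, Iglc1, Iglc2 and Iglc3) and the 3 companion genes. The nearest genes above the minimum were Igkv13-84 (mean 10.2), Ighv1-69 (10.3) and Ighv14-1 (10.5), and those under it were Igkv3-5 (9.57), Igkv4-90 (9.49) and Ighv1-42 (9.35). Among the constant region genes, Ighd (mean 2.23), Ighg2c (5.0) and Ighg3 (6.58) stayed under it.

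The libraries came from tumours of the small intestine of 2 mice, 1 female and 1 male, so mouse and sex cannot be told apart. Both were Villin-creER;Apc fl/+;Rosa fl/Confetti mice (Apc het;Confetti, genotype Apchet in the labels), at least 8 weeks old when they received 4 mg of tamoxifen, and given 200 mg per kg of the mutagen ENU 10 days later. No untreated mouse or normal gut was among these libraries. The Villin promoter drives the Cre in gut epithelium, which places loss of 1 Apc copy and the Confetti colour in epithelial cells and not in plasma cells. Tumours with cells of more than 1 Confetti outcome were cut under a fluorescence microscope into their clones, which the study assigned as major and minor. This gave 20 major and 20 minor clones of 20 tumours, 10 tumours per mouse, while 23 tumours (10 female, 13 male) were sequenced undivided. The series' own description counts 20 monoclonal tumours, and since which of the 23 these are was not worked out, the undivided group may hold 3 tumours outside that set. Each library also carries the label SI10, SI20 or SI30 for the stretch of small intestine. These counts were 27, 32 and 4 libraries, with SI30 found in divided tumours of the female mouse only and tumour 22 of that mouse labelled SI20 for the major and SI10 for the minor clone. The letters a and b on the labels name the clones, and which of them was major came from the study's source data. A clone here is a piece of tissue and holds its stroma and immune cells too.

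In units of 1000000, normalised counts summed to between 26.1 and 45.9 per library. The value of 1 read, taken from the density peak of low values, gave an estimate of 13.1 to 52.0 reads (median 32.7). The median estimate in that unit was 35.02 for major clones, 32.8 for minor clones and 29.6 for undivided tumours. Some plasma cell genes outside the set followed Jchain. Over the 63 libraries, its Pearson correlation on the log2 scale was 0.84 with Pou2af1, 0.83 with Irf4 and 0.70 with Tnfrsf17, which encodes the survival receptor BCMA. Other plasma cell genes followed it less, with 0.53 for Tnfrsf13b, 0.46 for Cd38, 0.45 for Slamf7, 0.40 for Cd93 and for Eaf2. The value was 0.37 for Xbp1, 0.32 for Tent5c, 0.24 for Sec11c, 0.23 for Fkbp11, 0.16 for Creld2 and 0.06 for Txndc5. These values describe libraries that share 2 mice. Prdm1 and Sdc1, which plasma cells also use, had correlations of -0.11 each with Jchain and levels of at least 318 and 5056 normalised counts, and gut epithelium expresses both. Of the genes that define B cells, Ms4a1 was at 0 in 36 and Pax5 in 44 of the 63 libraries. In bulk tissue, fewer plasma cells and less RNA per plasma cell cannot be told apart.

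An antibody consists of heavy and light chains, and each chain joins 1 of many V segments to a constant region. A developing B cell makes this choice once by cutting its DNA, and the plasma cell that descends from it secretes that single antibody, so the V segments in a tissue sample show which families of plasma cells contributed. The heavy constant region sets the class. In the gut wall the main class is IgA, encoded by Igha, whose molecules are joined as dimers by the J chain (Jchain) and carried through the epithelium into the lumen by the receptor encoded by Pigr. Mzb1 and Derl3 encode proteins of the endoplasmic reticulum that serve folding and disposal of secreted proteins.

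The V segments lie in 3 clusters of the genome, given here on build GRCm39. All 59 Ighv segments were on the minus strand of chromosome 12 (chr12:113551887-115964081), the 61 Igkv segments on chromosome 6 (chr6:67532481-70676051, 23 on the plus and 38 on the minus strand) and the 3 Iglv segments on the minus strand of chromosome 16 (chr16:18903767-19079609). Among the constant region genes, Igha lay at chr12:113218450-113223856 and Ighm at chr12:113382178-113386350 on the minus strand, and Igkc at chr6:70703419-70703950 on the plus strand. Jchain (chr5:88667668-88675750) and Derl3 (chr10:75729215-75731775) lie outside the antibody loci. The following sequences are the ends of the annotated V exons on which the differences between the mice rest, 5′ to 3′ on the gene's own strand. Ighv1-82 (chr12:115916158-115916445) is shown with Ighv1-80, the member nearest to it in sequence, and with Ighv1-26, which led most often in the male mouse, with capitals marking the bases that differ from Ighv1-82:
Ighv1-82: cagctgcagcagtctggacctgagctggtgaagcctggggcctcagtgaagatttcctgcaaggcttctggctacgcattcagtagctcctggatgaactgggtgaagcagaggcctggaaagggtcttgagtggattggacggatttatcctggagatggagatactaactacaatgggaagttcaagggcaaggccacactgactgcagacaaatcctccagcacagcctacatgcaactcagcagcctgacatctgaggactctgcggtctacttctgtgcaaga
Ighv1-80: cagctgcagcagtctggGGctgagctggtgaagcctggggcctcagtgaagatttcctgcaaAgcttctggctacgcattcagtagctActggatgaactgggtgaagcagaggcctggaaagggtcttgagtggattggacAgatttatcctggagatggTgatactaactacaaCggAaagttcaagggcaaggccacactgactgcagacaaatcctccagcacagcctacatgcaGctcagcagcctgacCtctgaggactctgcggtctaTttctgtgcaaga
Ighv1-26: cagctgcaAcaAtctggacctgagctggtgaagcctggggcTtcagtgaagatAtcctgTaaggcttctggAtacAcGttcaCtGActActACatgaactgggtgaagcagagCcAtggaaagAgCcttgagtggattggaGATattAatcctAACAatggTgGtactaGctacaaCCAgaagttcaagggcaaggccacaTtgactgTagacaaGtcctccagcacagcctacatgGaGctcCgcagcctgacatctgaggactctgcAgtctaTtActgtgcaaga
Ighv1-80 differed from Ighv1-82 at 11 of these bases (96.2% identity) and Ighv1-26 at 41 (85.8%). The kappa segment Igkv5-39 (chr6:69877408-69877695) follows with Igkv5-43, capitals marking bases that differ from Igkv5-39, then the lambda segment Iglv1 (chr16:18903767-18904054) with Iglv2, capitals marking bases that differ from Iglv1, and Igkv16-104 (chr6:68402769-68403056, plus strand), which has no partner shown:
Igkv5-39: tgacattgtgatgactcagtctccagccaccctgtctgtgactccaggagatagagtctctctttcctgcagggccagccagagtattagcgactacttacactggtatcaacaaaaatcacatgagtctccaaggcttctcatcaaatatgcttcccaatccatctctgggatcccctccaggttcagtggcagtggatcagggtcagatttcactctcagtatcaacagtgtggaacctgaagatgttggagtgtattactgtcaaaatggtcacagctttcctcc
Igkv5-43: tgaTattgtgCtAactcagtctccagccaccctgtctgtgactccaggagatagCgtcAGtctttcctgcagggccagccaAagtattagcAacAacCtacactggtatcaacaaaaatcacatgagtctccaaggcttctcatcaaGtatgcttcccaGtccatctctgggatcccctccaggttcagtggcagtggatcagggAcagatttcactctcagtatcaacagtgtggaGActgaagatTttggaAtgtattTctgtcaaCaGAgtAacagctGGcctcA
Iglv1: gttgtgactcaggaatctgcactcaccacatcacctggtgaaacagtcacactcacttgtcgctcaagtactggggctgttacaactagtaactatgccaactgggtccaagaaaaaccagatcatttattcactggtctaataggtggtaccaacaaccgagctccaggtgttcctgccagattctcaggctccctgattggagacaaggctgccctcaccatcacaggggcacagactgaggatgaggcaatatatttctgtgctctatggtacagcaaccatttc
Iglv2: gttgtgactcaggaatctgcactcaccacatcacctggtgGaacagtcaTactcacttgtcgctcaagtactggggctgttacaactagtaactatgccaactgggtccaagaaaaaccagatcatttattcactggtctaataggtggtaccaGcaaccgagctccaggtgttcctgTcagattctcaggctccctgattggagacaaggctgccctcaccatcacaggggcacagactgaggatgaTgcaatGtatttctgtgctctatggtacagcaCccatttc
Igkv16-104: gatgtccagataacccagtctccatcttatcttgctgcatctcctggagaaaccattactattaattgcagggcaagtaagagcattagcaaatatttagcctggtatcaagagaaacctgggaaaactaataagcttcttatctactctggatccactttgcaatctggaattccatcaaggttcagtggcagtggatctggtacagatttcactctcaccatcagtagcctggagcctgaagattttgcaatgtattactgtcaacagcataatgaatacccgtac
Igkv5-43 differed from Igkv5-39 at 25 bases (91.3% identity), and Iglv2 from Iglv1 at 7 (97.6%). Because reads were assigned among such near copies by an estimate, levels of near-identical segments are uncertain. The share of 31-base words that no other V segment of the set holds was 56.2% for Ighv1-82, 80.6% for Igkv5-39, 99.6% for Igkv16-104, 52.3% for both Iglv1 and Iglv2, and 33.7% for Ighv1-26. The median over segments was 62.4% for Ighv and 60.5% for Igkv, and 2 Ighv segments were under 20%.

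V segment promoters share the octamer ATGCAAAT (ATTTGCAT on the opposite strand), known as the site of OCT family factors that act with the coactivator encoded by Pou2af1. An exact match on either strand was sought in the 250 bases before the first annotated base of each segment. It was found for 49 of 59 Ighv (83.1%), all as ATGCAAAT, for 42 of 61 Igkv (68.9%) and for 3 of 3 Iglv segments, all of these as ATTTGCAT. Together 94 of 123 V segments (76.4%) held a match, against 330 of 21757 protein-coding genes (1.52%) in windows of the same length. The motif with its neighbours, in capitals, is shown for 5 segments, chosen after their values were seen because their shares or levels did not overlap between the mice:
Ighv1-82: tgctcatgaatATGCAAATtacttgagcct
Igkv5-39: aagtcagtatgATTTGCATaagtacttctt
Iglv1: aaatgaaagtaATTTGCATtactagcccag
Igkv10-96: agttcccaaaaATTTGCATgctctcacttc
Igkv16-104: atctcctgctgATTTGCATgtgcccaaaat
The stretch shown is chr12:115916679-115916708 for Ighv1-82, with the match starting 72 bases before the first annotated base, chr6:69878052-69878081 for Igkv5-39, with the match starting 109 bases before, and chr16:18904297-18904326 for Iglv1, with the match starting 65 bases before. Ighv1-26 and Igkv1-117 held no match in their 250 bases. Of the segments not shown whose shares did not overlap between the mice, Ighv1-83 and Igkv6-32 held no match. Ighv3-1, Igkv4-74, Igkv3-12 and Igkv1-133 held 1 each. A match describes the letters only, and segments with and without it were among those with high levels.

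The summed level of the 134 genes differed widely between libraries. The sum went from 4255 to 276175 normalised counts with a median of 54656, or from 0.0145% to 0.823% of a library's sum (median 0.181%). In the female mouse the sum had a median of 87008 (27669 to 276175, 30 libraries) and in the male mouse of 35394 (4255 to 136210, 33 libraries), and the ranges overlapped. Male tumour 19 had the lowest sum, in its minor clone, and undivided tumour 5 of the female mouse the highest. Constant region genes made up 69.97% of the mean sum, Igkv segments 11.3%, Ighv segments 6.83%, Iglv segments 2.75% and the companion genes 9.14%. These shares are of counts and not per length.

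**Figure D1:**
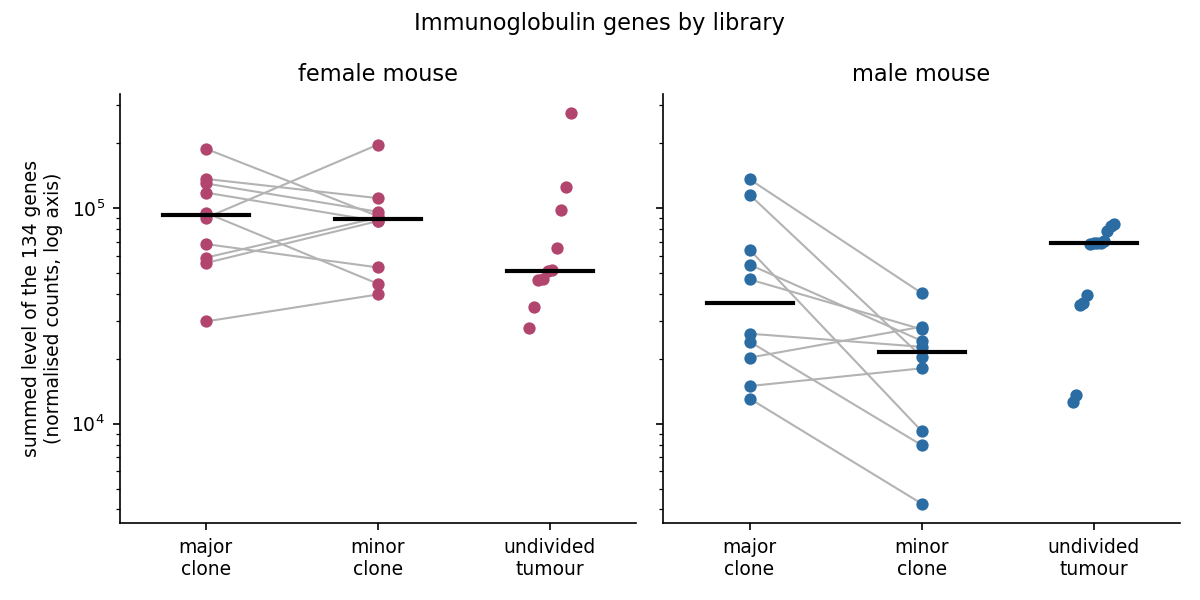
Summed level of the 134 immunoglobulin genes in each library, in normalised counts on a log axis, by clone class and mouse. Points are libraries, thin lines join the major and minor clone of a tumour and thick bars are medians. Minor clones of the male mouse lie lowest (median 21603) and the highest point is undivided tumour 5 of the female mouse (276175).

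Heavy chain RNA was almost all of the IgA class. Igha, the constant region gene of IgA, made up 92.2% to 99.7% of the counts of Igha, Ighm, Ighg1 and Ighg2b in a library (median 99.1% of 63), and its level ran from 912 to 88322 normalised counts (median 16350). Ighm, the constant region of IgM, had a median share of 0.517%, and the IgG genes Ighg1 and Ighg2b together 0.281%. The female mouse had a median Igha share of 99.5% (98.1% to 99.7%) and the male mouse of 98.4% (92.2% to 99.3%), so the ranges overlapped. Ighm took a median of 0.306% in the female and 0.863% in the male mouse, and the IgG genes 0.208% and 0.433%. Within a tumour, the Igha share of the major clone minus that of its minor clone had a median of -0.07 percentage points (-2.85 to 3.61), and it was higher in the major clone in 9 of 20 tumours. The median was -0.14 in the female mouse (higher in the major clone in 3 of 10 tumours) and 0.87 in the male mouse (6 of 10).

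Light chain use separated the mice. Lambda chains are the lesser light chain class of mice, and Iglc1, Iglc2 and Iglc3 took 12.5% to 24.1% of all light chain constant counts in the female mouse (median 17.4%, 30 libraries) and 2.16% to 6.55% in the male mouse (median 3.72%, 33 libraries). The ranges did not overlap. Iglc1 made up a median of 89.1% of lambda constant counts in the female mouse and 49.9% in the male mouse. Its level was 1511 to 16575 normalised counts (median 3992) in the female and 49.4 to 884 (median 278) in the male mouse. Iglv1, the V segment that mostly joins Iglc1, followed it with 1010 to 12057 (median 2515) against 51.7 to 807 (median 306). Iglv3 was also higher in the female mouse, at 32.7 to 497 (median 99.0) against 0 to 14.8 (median 3.12), while Iglv2 had a median of 12.1 (0 to 28.9) in the female and 63.9 (2.43 to 315) in the male mouse, with overlap. The lambda share did not separate clone classes: major minus minor clone had a median of -0.12 percentage points and was positive in 9 of 20 tumours. Igkc, the kappa constant region, had a median of 24673 (8654 to 76245) in the female and 13706 (1848 to 52171) in the male mouse.

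**Figure D2:**
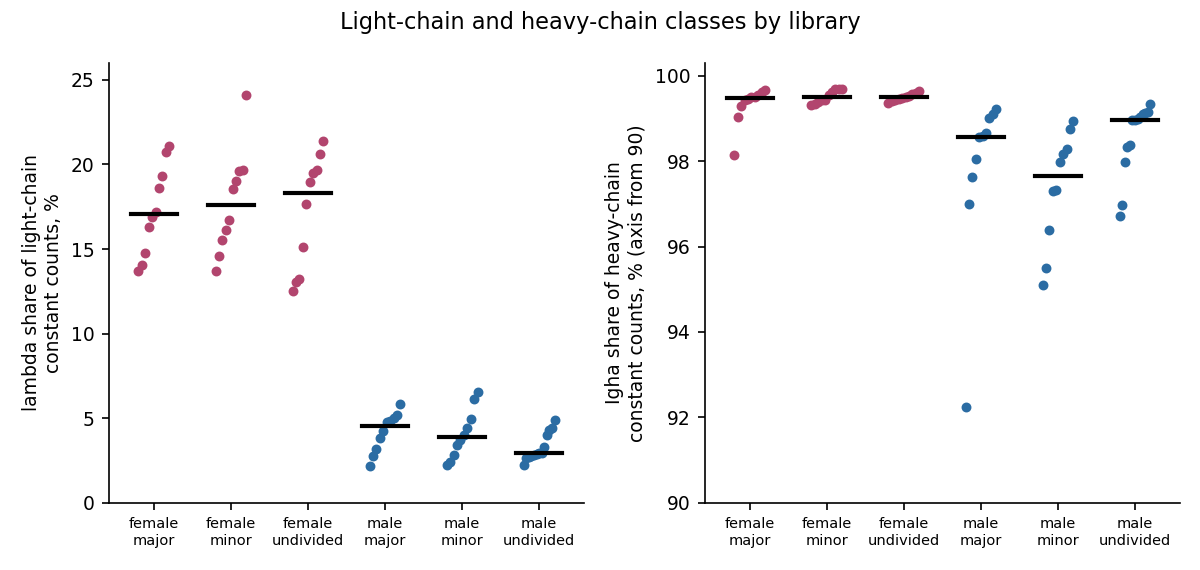
Light chain and heavy chain classes in each library, by mouse and clone class. One panel gives the lambda share of light chain constant counts and the other the Igha share of heavy chain constant counts, both in percent. Points are libraries, ordered by value within a group, and black bars are medians. The lambda share lies between 12.5% and 24.1% in the female and between 2.16% and 6.55% in the male mouse, and the Igha axis starts at 90% and not at 0.

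V segment use was set out as each segment's share of the summed Ighv or Igkv counts of a library. This puts libraries with unlike amounts of immunoglobulin RNA on 1 scale, but shares of few counts are less certain. The Ighv sum was lowest in the minor clone of male tumour 19 (126 normalised counts, 25 segments above 0). It was highest in undivided tumour 5 of the female mouse (20001, 56 segments). The exons of V segments are close in length. With 1 mouse of each sex, differences between the mice are descriptions without a test. Ighv1-82 took 20.3% to 39.3% of Ighv counts in the female mouse (median 28.2%) and was the leading Ighv segment in 30 of 30 of its libraries. In the male mouse its share was 0% to 8.89% (median 2.25%), and it led in none of 33 libraries. The male libraries were led by 12 different Ighv segments, Ighv1-26 in 15 of 33, with a share of 2.60% to 14.4% (median 8.39%) there and 2.03% to 12.6% (median 5.25%) in the female mouse. Ighv14-3, with the second highest mean, had 7.86% to 15.4% (median 11.5%) in the female and 0% to 12.2% (median 2.10%) in the male mouse. The 5 leading Ighv segments of a library held a median of 57.2% of Ighv counts in the female and 33.1% in the male mouse.

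Kappa segments differed between the mice too, in both directions. The 5 leading Igkv segments of a library held a median of 42.7% of Igkv counts in the female and 42.0% in the male mouse. Igkv5-39 had 7.56% to 18.6% of Igkv counts in the female mouse (median 13.3%), where it led in 28 of 30 libraries, and 0% to 3.82% (median 0.322%) in the male mouse. In the male mouse 8 segments led in turn, Igkv1-117 in 15 of 33 libraries with a share of 4.51% to 16.4% (median 10.1%), against 3.81% to 10.2% (median 5.39%) in the female mouse. Igkv5-48 had a median of 4.13% in the female and 7.57% in the male mouse, and Igkv5-43 of 6.28% and 8.31%, with overlap of both. The shares of 3 of 59 Ighv segments did not overlap between the mice, Ighv1-82, Ighv1-83 and Ighv3-1, all higher in the female mouse. For levels over all genes, 27 of 16489 had ranges that did not overlap (0.164%). Ighv1-83 is annotated as a pseudogene. The same held for 7 of 61 Igkv segments: Igkv5-39, Igkv4-74, Igkv6-32, Igkv3-12 and Igkv1-133 were higher in the female mouse, and Igkv10-96 and Igkv16-104 in the male mouse. Igkv10-96 took 0.344% to 2.06% of Igkv counts in the female and 3.47% to 13.05% in the male mouse, and Igkv16-104 0.00478% to 0.783% and 0.881% to 12.2%.

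**Figure D3:**
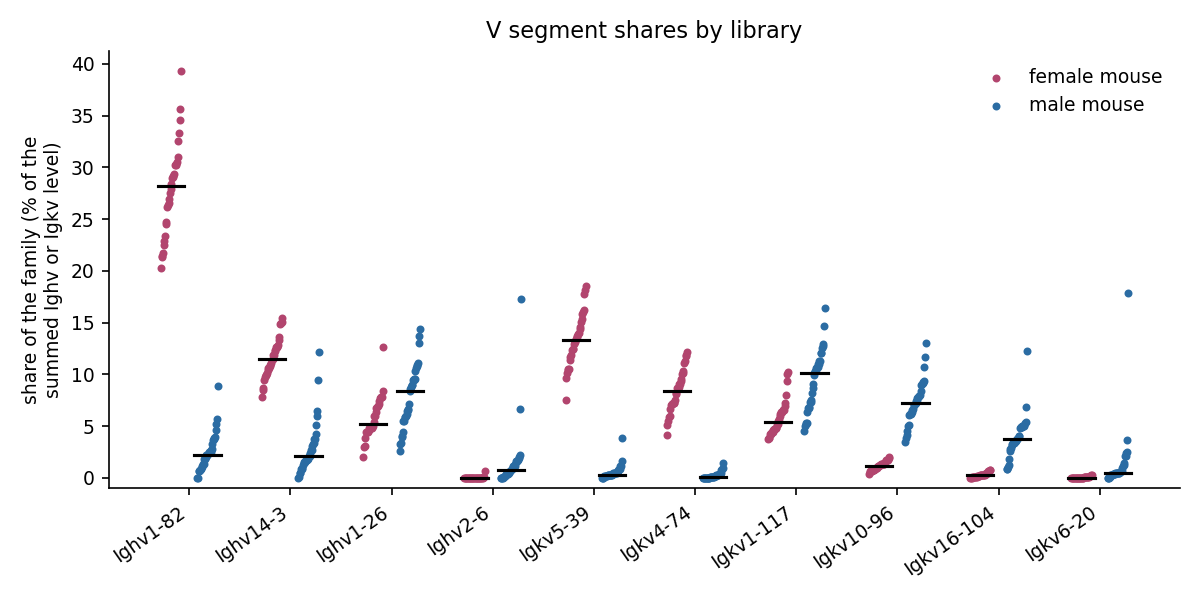
Share of V segments in the summed Ighv or Igkv level of their family, in percent, for named segments. Points are libraries, coloured by mouse and ordered by value, and black bars are medians. Ighv1-82 lies at 20.3% to 39.3% in the female and at 0% to 8.89% in the male mouse.

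Levels, and not only shares, were apart for few genes. The ranges of the 2 mice did not overlap for 7 of the 134 genes, all higher in the female mouse (Igkv4-74, Igkv5-39, Iglv1, Iglv3, Ighv1-82, Ighv1-83 and Iglc1), where 0.164% of all genes tested had such ranges in either direction. Iglv3 and Ighv1-83 passed the minimum of 10 only through the female mouse, and the counts of shares and levels that were apart follow in part from that minimum. Ighv1-82 had 443 to 6066 normalised counts (median 1562) in the female and 0 to 201 (median 39.7) in the male mouse. Igkv4-74 had 213 to 2267 (median 645) and 0 to 142 (median 6.62). Some single libraries had a lead of their own. In the minor clone of male tumour 19, with the lowest immunoglobulin sum, Ighv2-6 took 17.3% of Ighv counts and Igkv6-20 17.8% of Igkv counts. These shares are of only 126 Ighv and 620 Igkv normalised counts, so they rest on few reads. Ighv2-6 had a median share of 0.734% in the male mouse and Igkv6-20 of 0.511%.

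Whether the clones of a tumour shared V segments was asked through the overlap of their shares, the sum over segments of the lower of the 2 shares (100% when both are alike). A major clone overlapped little more with its own partner than with minor clones cut from other tumours in that mouse. For Ighv the median was 83.3% with the own partner and 81.8% with others in the female mouse, and 62.2% and 60.1% in the male mouse. For Igkv the medians were 81.8% and 80.4%, and 72.0% and 69.5%. Between mice it was 36.4% for Ighv (23.8% to 45.5%, 200 pairs) and 45.0% for Igkv (36.8% to 58.3%). Among the 10 minor clones of the mouse, the own partner came first for 2 of 20 tumours in Ighv and for 2 of 20 in Igkv, 1 in each mouse. When each minor clone was set against the 10 major clones instead, the own partner came first for 7 of 20 tumours in Ighv and for 5 of 20 in Igkv. With Spearman correlation in place of the overlap it was 4 in each, and for Ighv 4 with Pearson correlation or without the leading segment. The own partner was above the median of the others in 13 of 20 tumours for Ighv and in 11 of 20 for Igkv. The spread of own-tumour overlaps, from 75.7% to 90.5% in the female mouse for Ighv, lay inside or near that of other tumours (70.5% to 91.1%). The Ighv sums of minor clones were 126 to 1554 normalised counts in the male and 2076 to 16763 in the female mouse. Male overlaps thus rest on fewer counts, and the part of this in their lower values was not tested.

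**Figure D4:**
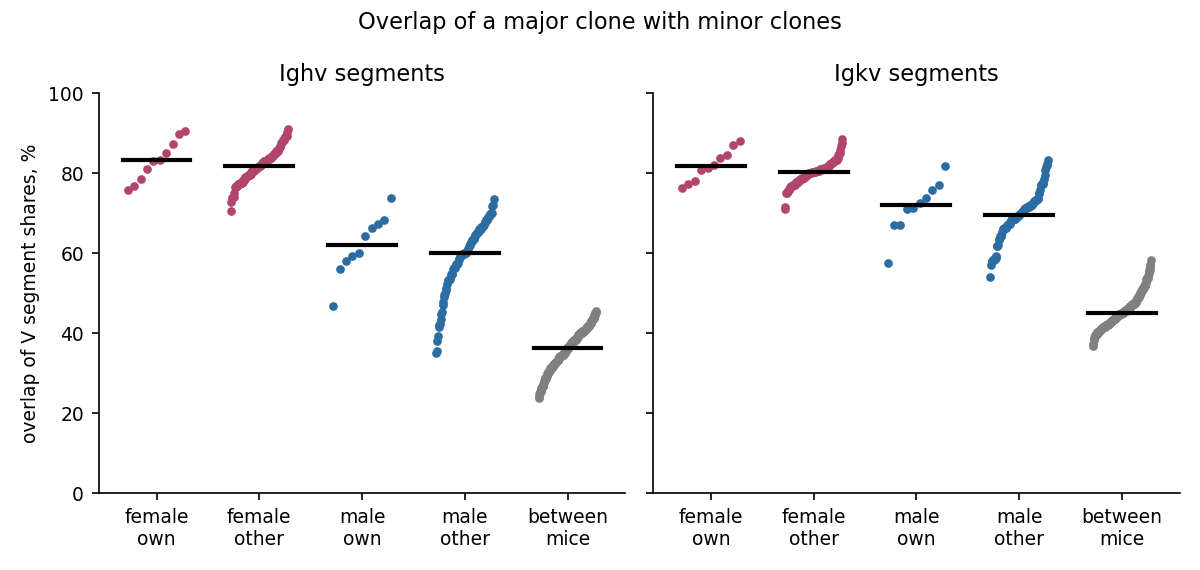
Overlap of the V segment shares of a major clone with minor clones, in percent, for Ighv and Igkv. Each point is a pair of libraries: own means both clones of 1 tumour, other means clones of different tumours in 1 mouse, and between mice means clones of different mice, with black bars at the medians. Median overlaps for Ighv are 83.3% and 81.8% in the female mouse, 62.2% and 60.1% in the male mouse and 36.4% between mice.

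Between major and minor clones, the immunoglobulin genes tended to be higher in the major clone, with the larger differences in the male mouse. The summed level was 29793 to 188661 normalised counts (median 92631) in major and 39756 to 196960 (median 88675) in minor clones of the female mouse. In the male mouse it was 13082 to 136210 (median 36426) in major and 4255 to 40347 (median 21603) in minor clones. The major clone had the higher sum in 6 of 10 female and 8 of 10 male tumours, with a median ratio of 1.26 in the female mouse and 2.64 (0.719 to 6.95) in the male mouse. Over all 20 tumours the median ratio was 1.36, or 0.44 on the log2 scale. The groups overlapped.

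Gene by gene, limma with the tumour as block tested 132 of the 134 genes, and 3 rose in the major clone at a Benjamini-Hochberg adjusted p under 0.05, while none fell. Of all 16428 genes tested, 110 rose (0.67%). Igkv16-104 had 2.15 to 1051 normalised counts (median 55.0) in major and 0.833 to 235 (median 26.2) in minor clones, a difference of 1.28 ± 0.28 (SE) on the log2 scale (limma adjusted p = 0.0368) seen in 17 of 20 tumours. Igkv1-135 had 23.03 to 691 (median 217) in major and 7.58 to 419 (median 138) in minor clones, and differed by 1.08 ± 0.25 (limma adjusted p = 0.0412, 17 of 20 tumours). Ighv5-17 had 5.18 to 136 (median 26.6) in major and 0 to 59.4 (median 9.01) in minor clones, and differed by 1.48 ± 0.37 (limma adjusted p = 0.0478, 16 of 20 tumours). The ranges of the clone classes overlapped for each of these V segments. The p-values measure the spread between tumours of 2 mice. The number called rested on single tumours. It was 0 without female tumour 22 or 26, or male tumour 20, 22, 25, 26 or 27, and 1 without female tumour 30 or male tumour 28 or 29. It was 5 without female tumour 29, 8 without female tumour 27, 9 without male tumour 31 and 14 without female tumour 19. The paired difference had a median of 0.85 over the 132 genes, above 0 for 129, against a median of 0.01 over all genes tested, of which 51.8% were above 0. An unadjusted p under 0.05 was met by 79 of 132 genes and by 22.4% of all genes. The 132 genes are not independent of each other, so these counts are descriptions.

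Differences above 0 were found in each family, with 55 of 57 tested Ighv (median difference 0.93), 61 of 61 Igkv (0.80), 3 of 3 Iglv (0.60) and 8 of 8 constant region genes (0.66) above 0 on the log2 scale. These genes vary together between libraries, with r to Jchain of 0.93 for Igha and 0.97 for Igkc, so they do not count as replicates. No constant region gene passed the threshold, though Iglc3 did in 4 of 32 alternatives. Igha had 2151 to 68543 normalised counts (median 20903) in major and 912 to 76053 (median 9591) in minor clones, a difference of 0.73 ± 0.26 (SE, limma adjusted p = 0.109, higher in 14 of 20 tumours). Igkc differed by 0.59 (limma adjusted p = 0.0999) and Ighm by 0.51 (0.144). Ighg1, an IgG gene of low level, had 3.03 to 280 (median 28.8) in major and 0 to 79.1 (median 9.62) in minor clones, and differed by 1.77 ± 0.57 (limma adjusted p = 0.0795, 14 of 20 tumours). Iglc3 differed by 0.91 (limma adjusted p = 0.0612) and Iglc1 by 0.57 (0.158). The companion genes Jchain and Mzb1 differed by 0.53 (limma adjusted p = 0.136) and 0.71 (0.176). Derl3 had a difference of -0.04 (limma adjusted p = 0.915), with the major clone higher in 10 of 20 tumours.

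In the female mouse alone, 0 of 112 genes tested by limma passed the threshold and 6 had an unadjusted p under 0.05 (7.40% of all genes did), with a median difference of 0.20. Over all 16402 genes tested there, 0 rose (0%). In the male mouse alone it was 0 of 118 (lowest adjusted p 0.0635) beside 25 of 16382 that rose in all (0.153%), 79 had an unadjusted p under 0.05 (20.7% of all genes did) and the median difference was 1.42. Igha differed by 1.41 in the male mouse (limma adjusted p = 0.0837) and by 0.04 in the female mouse (0.982). The difference of the clone effect between the mice, tested as an interaction in limma, passed for 0 of 132 genes, with 36 at an unadjusted p under 0.05, beside 0 of 16428 in all (0%) and 7.65% of all genes at that p. The median interaction, male minus female, was 1.12 on the log2 scale. Ighv1-82, the leading female segment, had an interaction of 1.55 ± 0.45 (limma adjusted p = 0.633).

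**Figure D5:**
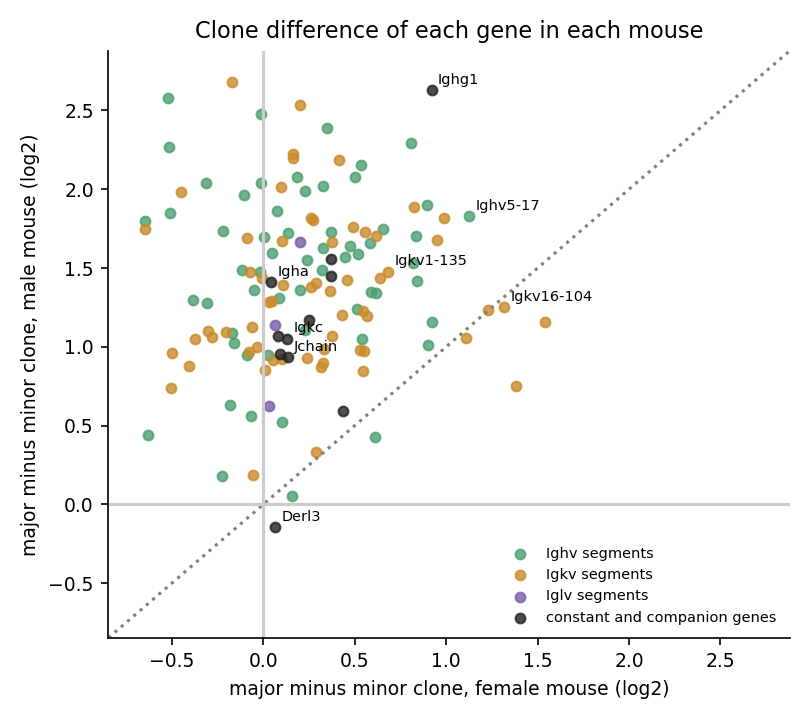
Major minus minor clone difference of each tested gene, as mean log2 difference over 10 tumours, in the female mouse (horizontal axis) and the male mouse (vertical axis). Each point is a gene, coloured by family. The dotted line marks equal differences, and most points lie above it. Igha lies at 0.04 in the female and 1.41 in the male mouse, and Derl3 at 0.06 and -0.14.

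Other lists of genes were read in the same comparison, and their part in the immunoglobulin result was not tested. Pigr, the receptor that carries IgA through epithelium, rose in the major clone: it had 15413 to 98151 normalised counts (median 38718) in major and 8998 to 93623 (median 28457) in minor clones, a difference of 0.73 ± 0.15 (SE, limma adjusted p = 0.0291) with the major clone higher in 18 of 20 tumours. It was the 1 gene called of 13 tested in a list of 14 genes for IgA transport, homing and survival. All 13 were above 0, with a median of 0.34. In the female mouse alone 10 of 14 tested were above 0 (median 0.21) and in the male mouse alone 13 of 13 (0.68). Limma called 0 of them in either mouse. The chemokines Ccl25 and Ccl28, which attract IgA plasma cells, differed by 0.54 (limma adjusted p = 0.0748) and 0.64 (0.130), and the survival factor Tnfsf13 by 0.34 (0.0766). Of 16 plasma cell programme genes 15 were tested and none passed in limma (2 at an unadjusted p under 0.05, median 0.09), with Irf4 at 0.54 (adjusted p = 0.182). Of 14 B cell genes 5 were tested, 0 passed in limma, 3 had an unadjusted p under 0.05 and the median was 0.57. Of 6 germinal centre genes 3 were tested, with 0 called by limma, 0 at an unadjusted p under 0.05 and a median of -0.09.

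Lists for other cell types were read too. The 6 fibroblast genes had a median difference of 0.68, with 5 of 6 at an unadjusted p under 0.05 and 0 called by limma. The median was 1.09 in the male mouse, with 5 of 6 at that p, and 0.18 in the female mouse, with 0 of 6. With 0 called by limma in each list, the 7 myeloid genes had a median of 0.26 (4 at an unadjusted p under 0.05), the 4 smooth muscle genes 0.49 (3), the 7 T cell genes 0.26 (0) and the 6 epithelial genes 0.11 (1). The 4 red cell genes had a median of 0.36 (2), and 0.59 in the female mouse alone (4). The 3 endothelial genes had a median of 0.42, with Cdh5 at -0.54 (limma adjusted p = 0.143), and their summed level was higher in the major clone in 6 of 20 tumours (median log2 ratio -0.35), in 1 of 10 female tumours (-0.79) and 5 of 10 male tumours (0.13). With the male tumours alone, limma called 0 genes of these lists, and the median was 0.86 for endothelium (2 of 3 at an unadjusted p under 0.05), 0.72 for smooth muscle (3 of 4), 0.50 for myeloid cells (3 of 7) and 0.16 for epithelium (3 of 6). In the female mouse alone it was -0.05 for endothelium (1 of 3), 0.35 for smooth muscle (0 of 4), 0.09 for myeloid cells (0 of 7) and 0.09 for epithelium (0 of 6). As a description, log2 ratios of the summed lists were correlated with that of the summed immunoglobulin genes. For epithelial genes the Pearson r was 0.77 over the 10 male tumours, -0.39 over the 10 female tumours and 0.12 over all 20. For the B cell list it was 0.35, 0.60 and 0.56 in the same order, and for myeloid genes 0.32, 0.29 and 0.43. For the plasma cell programme genes it was 0.23, -0.26 and 0.11. Over all 20 tumours it was 0.30 for endothelial genes, 0.25 for IgA transport, homing and survival genes, and 0.24 for T cell and for fibroblast genes. The smooth muscle genes had 0.12, the germinal centre genes -0.01 and the red cell genes -0.26. The 18S ribosomal RNA gene Rn18s, of which a polyA library should hold little, had a median log2 ratio of -1.36 and was higher in the major clone in 5 of 20 tumours. Its median was -1.67 in the male mouse (higher in the major clone in 1 of 10 tumours) and -0.78 in the female mouse (4 of 10). The summed level of the fibroblast genes was 1495 to 20240 normalised counts (median 7504) in major and 1240 to 18307 (median 5584) in minor clones. That of the B cell list, 13 of whose 14 genes are in the table and 8 of these under a mean of 10, was 72.1 to 396 (median 203) in major and 45.1 to 329 (median 130) in minor clones, and higher in the major clone in 16 of 20 tumours.

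Undivided tumours were compared with the clones with the mouse as a covariate. Igha had 2282 to 88322 normalised counts (median 16676) in undivided tumours, and the highest of these, female tumour 5, lay above every clone. Against major clones, 0 of 134 genes passed in limma, 6 had an unadjusted p under 0.05 (11.95% of all genes did) and the median difference was -0.21, where 2 of 16510 genes passed in all (0.0121%). Ighg1 had the lowest p of these, with 0 to 386 (median 13.5) in undivided tumours and a difference of -1.62 ± 0.59 (SE, limma adjusted p = 0.327). Against minor clones, 2 of 131 genes rose and none fell, beside 375 of 16491 in all (2.27%), so the genes were not called more often than others. An unadjusted p under 0.05 was met by 31 of 131 (19.6% of all genes did), and the median difference was 0.65. Of the 7 T cell genes 2 rose against minor clones (median 0.78) and the endothelial gene Cdh5 fell by 1.12 on the log2 scale (limma adjusted p = 0.0473), while against major clones the 6 fibroblast genes had a median of -0.89, with 5 at an unadjusted p under 0.05 and 0 called by limma. The plasma cell programme genes had a median of 0.04 against minor clones, with 0 of 15 called by limma. The part of all these genes in the immunoglobulin differences was not tested. Igkv9-124 had 9.94 to 518 (median 110) in undivided tumours and 3.46 to 218 (median 43.2) in minor clones, and differed by 1.46 ± 0.42 (limma adjusted p = 0.0405). Igkv16-104 had 1.04 to 1234 (median 94.9) in undivided tumours, and differed by 1.43 ± 0.43 (limma adjusted p = 0.0497). The ranges of undivided tumours and minor clones overlapped for both. When single libraries were left out, the number called lay between 0 and 4. It was 0 without any 1 of 14 libraries: male undivided tumours 1, 2, 5, 9, 10, 15 and 17, female undivided tumour 5, the minor clone of female tumour 28 and the minor clones of male tumours 19, 22, 26, 27 and 29. It was 1 without any 1 of 19 other libraries and 4 without male undivided tumour 4.

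For the comparison with minor clones, each mouse was also taken alone. In the male mouse 14 of 119 genes rose in undivided tumours, beside 553 of 16478 in all (3.36%), 73 had an unadjusted p under 0.05 (20.4% of all genes did) and the median difference was 1.56. Igha had 2282 to 25907 normalised counts (median 16350) in 13 undivided tumours and 912 to 7552 (median 5521) in 10 minor clones of that mouse, a difference of 1.64 ± 0.42 (SE, limma adjusted p = 0.0313). Igkc differed by 1.51 (limma adjusted p = 0.0267), Jchain by 1.36 (0.0301) and Iglc2 by 1.25 (0.0472). Ighv14-3 had the largest difference, with 2.42 to 331 (median 74.8) in undivided tumours and 0 to 35.01 (median 10.5) in minor clones, 2.98 ± 0.68 (limma adjusted p = 0.0214). The other 9 were V segments, among them Ighv5-17 (2.48), Ighv1-9 (2.32), Igkv2-137 (2.32) and Igkv9-124 (2.27). In the female mouse 0 of 109 genes passed in limma, 5 had an unadjusted p under 0.05 (8.72% of all genes did) and the median was -0.30, beside 0 of 16372 genes that rose in all (0%), with Igha at -0.50 (adjusted p = 0.721). The difference between the mice was not tested here. In the same male libraries, 2 of 7 T cell genes rose (median 0.98), and their summed level was 324 to 1596 normalised counts (median 672) in undivided tumours and 209 to 795 (median 424) in minor clones. Of the IgA transport, homing and survival genes 3 of 12 tested rose (median 0.81). Of the plasma cell programme genes 14 were tested, with 0 called by limma, 3 at an unadjusted p under 0.05, 8 above 0 and a median of 0.05. The 4 smooth muscle genes had a median of 0.75 and the 6 fibroblast genes of -0.57, with 0 called by limma in either and 1 and 0 at an unadjusted p under 0.05. The 4 B cell genes tested had a median of 0.83, the 4 red cell genes of 0.67 and the 7 myeloid genes of 0.48, with 0 called by limma and 1, 0 and 1 at that p. The part of these genes in the immunoglobulin difference was not tested.

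Between SI10 and SI20 no immunoglobulin gene passed the threshold. In undivided tumours, Igha had 3290 to 88322 normalised counts (median 14107) in 12 SI10 and 2282 to 31947 (median 17912) in 11 SI20 tumours. There 0 of 131 genes passed in limma, 3 had an unadjusted p under 0.05 (7.62% of all genes did) and the median of SI10 minus SI20 was -0.08, where 28 of 16511 genes passed in all (0.17%). In the divided tumours, taken as 1 value per tumour, 0 of 132 genes passed in limma, 1 had an unadjusted p under 0.05 (14.3% of all genes did) and the median was -0.05, beside 46 of 16428 in all (0.28%). The median difference was 0.54 in the female and -0.63 in the male mouse for undivided tumours, and 0.30 and -0.34 for divided tumours. Jchain differed by 0.09 ± 0.35 (SE, limma adjusted p = 0.959) in undivided and by 0.14 ± 0.34 (0.865) in divided tumours.

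The level of a plasma cell gene in the major clone was set against that in the minor clone of the same tumour. Over 20 tumours Igha had a Pearson r of 0.69 on the log2 scale (permutation test, two-sided, p = 0.00069, adjusted over 4 genes 0.00276) and a Spearman rho of 0.71 (p = 0.00053). Jchain had r = 0.58 (permutation p = 0.00674, adjusted 0.00899) and rho = 0.57 (p = 0.0102), and Igkc r = 0.59 (permutation p = 0.00589, adjusted 0.00899) and rho = 0.57 (p = 0.00989). Ighm had r = 0.20 (permutation p = 0.402, adjusted 0.402) and rho = 0.15 (p = 0.512). Without the 2 tumours farthest from the median, r was 0.60 (permutation p = 0.00887) for Igha, 0.58 (p = 0.0114) for Jchain, 0.43 (p = 0.0733) for Igkc and 0.03 (p = 0.906) for Ighm, and the p of Igkc no longer passed. The mice differ in level, and within a mouse no Pearson r of these genes passed. For Jchain it was 0.31 (permutation p = 0.384, rho -0.13, p = 0.733) in 10 female and 0.34 (p = 0.333, rho 0.44, p = 0.204) in 10 male tumours. For Igha r was 0.57 (permutation p = 0.0904, rho 0.68, p = 0.0342) and 0.51 (p = 0.138, rho 0.50, p = 0.144) within the female and male mouse, and without 2 tumours it was 0.48 (p = 0.236) and 0.08 (p = 0.818). For Igkc it was 0.45 (permutation p = 0.186, rho 0.43, p = 0.218) and 0.49 (p = 0.151, rho 0.33, p = 0.347). For Ighm it was 0.10 (permutation p = 0.774, rho -0.21, p = 0.561) and 0.24 (p = 0.515, rho 0.33, p = 0.350). The pooled relations therefore did not pass within the mice, apart from the rho of Igha in the female mouse.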

How the data were processed

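PolyA RNA of 63 libraries was sequenced with a stranded mRNA kit. Per the submitters' processing notes and the study's methods, the authors checked reads with FastQC 0.11.9, trimmed them with Trimmomatic 0.39, estimated transcript levels with Salmon 1.9.0 against GRCm39 and used DESeq2. STAR 2.7.7a and Picard 2.27.3 are also named. The deposited values are signal, counts normalised by the authors between libraries. How the scaling was done is not given in the sources used here, and whole reads were not recovered, so no count model was run.

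The members and gene lists were chosen with earlier results of these data known. Values were taken as log2(value + 1). Tests used genes whose mean reached 10 in the compared libraries, in limma 3.58.1 (R 4.3.3, eBayes with trend), with the tumour as block for clones and the mouse as covariate otherwise. P-values were adjusted by Benjamini-Hochberg over all genes tested, at 0.05. The tumour number pairs the clones, since both were cut from the same tumour. Fold changes on this scale understate those of low genes. The scripts were tested on simulated data. Correlations used 100000 permutations. Shares of V segments and classes were computed from the values with Python 3.11.15 and pandas 2.3.3, and depth was estimated from the value of 1 read per library, the density peak of low log2 values up to 4 (bandwidth 0.05). Positions and sequences came from the GRCm39 genome with a Gencode annotation later than the authors' own, and all 134 genes matched. 0 columns of the table were left unused. All constant region and companion genes were named, with the 5 V segments of highest mean per family, the 3 of highest share in 1 library for Ighv and Igkv, and the called members of largest difference in each comparison. Other segments were named after their values were seen. Alternatives were other pseudocounts, no filter, other scalings and fits, single mice and leaving out each tumour or library. No sequence is given for Mzb1.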

Additional observations from a re-analysis of the deposited data

Results flagged for a closer look

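In groups of 10 libraries, the gap of the highest or lowest value to its neighbour was set against the range of the group by Dixon's test. Of 75 groups tested, 29 held such a value, and chance gives about 1 in 20 for independent values with a normal distribution. The genes share libraries and their counts are skewed, so that rate is not one for these data. Undivided tumour 5 of the female mouse was the highest of its group in 12 quantities, with 276175 normalised counts for the summed genes, 88322 for Igha, 76245 for Igkc, 27830 for Jchain, 306 for Ighm, 140.4 for Ighg2b, 473 for Mzb1, 125 for Derl3, 16575 for Iglc1, 6066 for Ighv1-82, 12057 for Iglv1 and 5046 for Igkv5-39. Among minor clones of the female mouse, that of tumour 26 was highest for the sum (196960), Igha (76053), Igkc (52555), Jchain (14573) and Ighm (169.8). Among major clones of that mouse, tumour 27 had the lowest Igha share (98.1%) and the highest Ighm (232), and tumour 30 the highest Igkc (56976).

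In the male mouse the major clone of tumour 19 had the lowest Igha share (92.2%), and the minor clone of tumour 28 the highest Ighm (233). Ighg1 stood apart in the major clone of male tumour 20 (280 normalised counts), the minor clone of male tumour 29 (53.9), the minor clone of female tumour 27 (79.1) and undivided tumour 2 of the female mouse (35.9). Ighg2b was highest in the minor clone of male tumour 20 (125), and the major clone of that tumour was also highest for Derl3 (45.3) and Igkv5-39 (108).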

How the results depend on the processing

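Depth limits V segments of few counts, and with 2 mice no spread between mice can be given. The 3 immunoglobulin genes called between major and minor clones became 1 without the filter on low values, 5 with quantile scaling, 4 with either sum scaling, 2 with a pseudocount of 0.1 or a mean of at least 50, 3 with a pseudocount of 5, 1 without the trend in eBayes, 0 in the female mouse, 0 in the male mouse, 0 without female tumour 22 and 0 with no replicate block, that is without pairing the clones by tumour. Leaving out each tumour in turn gave 0 to 14. The 2 calls of undivided tumours against minor clones became 1 with a pseudocount of 0.1, 0 without the filter, 1 with either sum scaling, 1 without the trend, 1 with the segment as a second covariate, 1 in SI10 and SI20 alone, 0 in the female mouse and 14 in the male mouse, and leaving out each library gave 0 to 4. The other comparisons kept 0 calls in each alternative run. For all genes, scaling libraries to the same sum moved the median difference of the undivided tumours by about -0.10.

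Tumours whose own partner came first in Ighv rose from 2 to 4 by Pearson, 4 by Spearman, 4 without the leading segment and 7 when minor clones were the query, with 1 in each mouse alone. In Igkv the 2 became 4 by Spearman and 5 with minor clones as query, with 1 in each mouse alone. Leaving out each tumour gave a median log2 ratio of the sums of 0.436 to 0.441, and 0.33 in the female and 1.38 in the male mouse alone. The median difference of the Igha share was -0.138 in the female and 0.869 in the male mouse alone, and -0.129 to -0.0188 without each tumour. The r of Jchain was 0.307 in the female and 0.343 in the male mouse alone.

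The difference of Derl3 changed sign to 0.064 in the female mouse, and leaving out each tumour in turn gave -0.0986 to 0.0267. For undivided tumours against minor clones, Igha (-0.50), Igkc (-0.25) and Jchain (-0.14) changed sign in the female mouse alone. Igkv16-104 kept its call in 21 of 32 alternatives between clones, Igkv1-135 in 15 of 32 and Ighv5-17 in 10 of 31.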
